A study of Mus musculus with 10 samples.

Results

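The genes described here are 40 genes of the cell cycle and of DNA replication: G1 cyclins, replication licensing factors, enzymes of DNA synthesis and nucleotide supply, mitotic kinases and cyclins, and proteins of the spindle, kinetochore and chromosome (the members). A gene was followed through the brightest microarray probe that the platform annotation assigned to it alone. Such a probe named 39 of the 40 genes, out of 19749 genes named in all, and Ccnb1 was not among them. The median of the whole table, 5.27 on the log2 scale (an intensity of 38.5), served as the mark for a level near background. By median over the 10 libraries, 23 of the 39 genes lay at or below it. A gene was tested where at least 2 libraries exceeded that mark, which 19 of the 39 did and 20 did not, among 10792 genes tested.

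The 10 libraries were made from microglia, the resident macrophages of the brain, sorted by flow cytometry from male C57BL/6 mice. The mice were either wild type (WT) or Trem2-/-, with an age given as 8 to 12 weeks. That age is the same for all 10 libraries, also those after 12 weeks of cuprizone, and the stage it refers to was not known. Age at sorting may therefore differ with the duration of the diet. Each genotype gave 1 control library, 2 libraries from mice on a diet with 0.2% cuprizone for 4 or 12 weeks (the cuprizone group), and 2 from mice returned to normal food for 2 weeks after 4 or 12 weeks of cuprizone (the recovery group). Biotinylated cRNA was made from 2 ng of total RNA. No control was labelled as matched to 12 weeks. The library titled Trem2-/- 12 weeks of cuprizone carries 4 weeks in its time label and description, and was counted by its title. The labels do not say whether libraries came from single or pooled mice, so the p-values measure only the spread between these libraries, which may be technical.

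Cells that divide load the ring-shaped MCM helicase onto replication origins in G1, with Cdc6 and Cdt1 as loading factors and geminin as the inhibitor of Cdt1; DNA polymerase then works with the sliding clamp Pcna on nucleotides supplied by ribonucleotide reductase, thymidylate synthase and thymidine kinase. Mitosis is driven by Cdk1 with cyclins A and B and by the Aurora and Polo kinases. Microglia of the healthy adult brain divide rarely and maintain themselves by division. Cuprizone binds copper, and in the diet it leads to loss of oligodendrocytes and myelin, with microglia gathering in the lesions. Trem2 is a lipid-sensing receptor of myeloid cells.

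Transcription of these genes is known to be timed by promoter elements that differ by phase, E2F sites for replication genes and the cell cycle genes homology region (CHR), often with CCAAT boxes, for mitotic genes. RefSeq (GRCm38.p6) gave a promoter, from 250 bases before to 50 after the start, for 30 of the 39 genes; for the 3 with several entries the first was used. The letters searched on both strands, with overlaps allowed, were TTTCGCGC, TTTGGCGC and TTTCCCGC for E2F, TTTGAA for CHR and CCAAT. Of 13 promoters of licensing and DNA synthesis genes, 6 (46.2%) held E2F letters and 1 (7.69%) held CHR letters. Among 17 promoters of mitotic genes the counts were 1 (5.88%) and 13 (76.5%). CCAAT occurred in 9 of the 13 (69.2%) and 15 of the 17 (88.2%). Over all 27025 promoters of the same length these letters occurred in 1.91% (E2F), 18.1% (CHR) and 37.9% (CCAAT). Cdk1 was the 1 mitotic gene with E2F letters, and Mcm2 the 1 replication gene with CHR letters. The other promoters with E2F letters were those of the licensing genes Mcm3, Mcm5, Mcm6, Mcm7, Cdc6 and Cdt1. The DNA synthesis genes Pcna, Rrm1, Rrm2, Tyms, Tk1 and Uhrf1 held no E2F letters. The difference between the sets was not tested. Mcm7, Cdk1 and Mcm6 were the 3 tested members with the highest differences between cuprizone and the 1 control in WT. Mcm7 was low in that control, at 4.25. The promoters of these 3 are printed 5′ to 3′ on the gene's own strand, with the matches in capitals.
Mcm7, chr5:138171834-138172133, minus strand: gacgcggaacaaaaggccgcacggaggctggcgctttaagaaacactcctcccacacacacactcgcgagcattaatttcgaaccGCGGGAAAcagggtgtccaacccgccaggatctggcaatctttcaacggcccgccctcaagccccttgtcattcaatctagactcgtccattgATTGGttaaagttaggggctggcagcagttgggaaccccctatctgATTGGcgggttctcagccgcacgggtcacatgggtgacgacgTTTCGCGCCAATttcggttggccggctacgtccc
Cdk1, chr10:69352863-69353162, minus strand: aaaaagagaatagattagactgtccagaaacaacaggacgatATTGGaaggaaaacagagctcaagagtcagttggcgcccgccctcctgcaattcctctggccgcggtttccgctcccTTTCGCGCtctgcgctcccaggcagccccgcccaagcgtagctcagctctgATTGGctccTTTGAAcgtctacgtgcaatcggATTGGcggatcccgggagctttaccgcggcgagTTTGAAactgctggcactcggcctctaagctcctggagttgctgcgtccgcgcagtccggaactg
Mcm6, chr1:128359656-128359955, minus strand: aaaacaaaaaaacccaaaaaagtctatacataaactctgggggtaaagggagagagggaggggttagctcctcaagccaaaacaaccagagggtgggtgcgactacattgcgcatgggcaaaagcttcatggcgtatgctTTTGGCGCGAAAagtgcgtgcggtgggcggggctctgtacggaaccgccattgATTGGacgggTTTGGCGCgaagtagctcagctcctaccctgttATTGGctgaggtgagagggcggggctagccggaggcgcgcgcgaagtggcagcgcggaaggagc
Mcm7 held 2 E2F and 3 CCAAT matches and none for CHR. Mcm6 held 3 E2F and 2 CCAAT matches and none for CHR. Cdk1 held 1 E2F, 2 CHR and 3 CCAAT matches. A match describes letters and is not a binding site.

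Trem2, the deleted gene, spanned 7.26 to 7.85 where deleted and 10.66 to 10.81 in WT, with no overlap. The library medians lay between 37.6 and 39.3 in intensity, and libraries correlated at 0.974 to 0.991 over all probes. The sample numbers fall into 2 runs, the first with both controls and the 4-week libraries and the second with the libraries titled 12 weeks. Microglial markers were bright (9 of 10 on the array, all 9 above the mark), with summed intensities of 25340 to 31090 in the first run and 21450 to 24540 in the second. Astrocyte markers (8 of 8 on the array, 4 above the mark) summed to 398 to 571 and 315 to 363. Summed neutrophil markers (8 of 8 on the array) were 4493 to 13230 in the first run and 196 to 351 in the second, and monocyte markers (5 of 7) 257 to 485 and 98.0 to 147. Border macrophage markers (9 of 9) summed to 1297 and 1825 in the controls, 3900 to 4563 in the 4-week libraries and 1833 to 2084 in the second run. Oligodendrocyte precursor markers (8 of 8) summed to 161 to 202 in all libraries, and by median 1 of 8, Sox10, exceeded the mark. Sox10 did so in 9 libraries, Cspg4 in 2, and Pdgfra, Gpr17, Olig1, Olig2, Ptprz1 and Vcan in 0. The part of these other cells in the results was not tested. Fewer cells in cycle and less of a transcript per cell cannot be told apart in such bulk libraries.

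All levels below are log2 intensities of 1 probe, and in each pair of values the library at 4 weeks comes first. The level of 1 gene is not set against that of another, since probes differ in brightness. Among the G1 cyclins, Ccnd1 encodes cyclin D1, which opens G1 with Cdk4 and Cdk6. Ccnd1 measured 9.15 in the WT control, 9.09 and 7.95 on cuprizone and 9.27 and 8.50 in recovery, and 9.24, then 9.31 and 8.18, then 9.08 and 8.44 in the Trem2-/- libraries. Its 6 first-run libraries, controls included, lay above its 4 second-run libraries. Ccne2, cyclin E2, ranged from 4.19 to 4.84 and did not exceed the table median in any library.

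**Figure D1:**
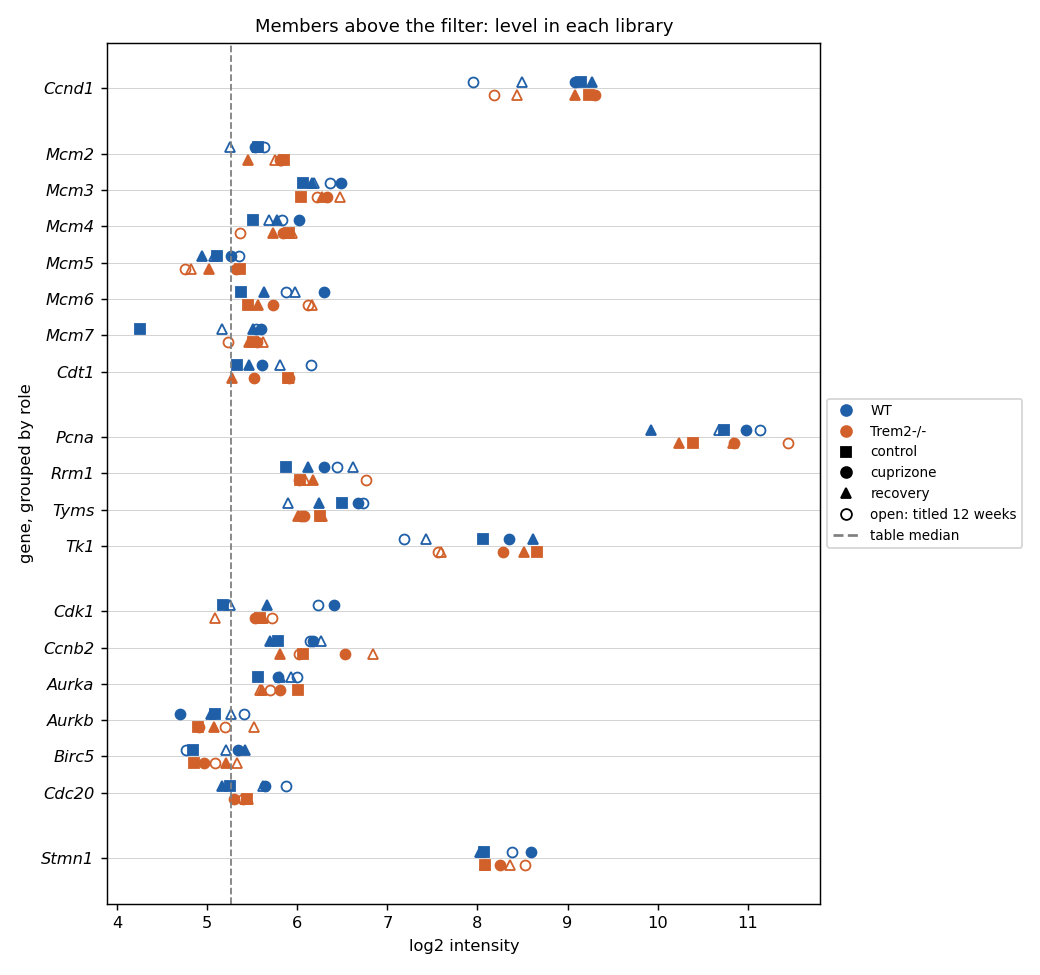
Log2 intensity (horizontal axis) of the 19 tested genes (vertical axis, by role) in each of the 10 libraries, with colour for genotype, shape for diet and open symbols for titled 12 weeks; the dashed line is the table median of 5.27. Mcm7 stands at 4.25 in the WT control and between 5.17 and 5.62 in the other 9 libraries.

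The licensing genes were low but mostly measurable, with 7 of 9 tested. Mcm2, a subunit of the MCM helicase, measured 5.56 in the WT control, 5.53 and 5.63 on cuprizone and 5.55 and 5.25 in recovery, and 5.86, then 5.81 and 5.82, then 5.45 and 5.76 in the Trem2-/- libraries. The genotypes overlapped. Mcm5, another subunit, measured 5.11 in the WT control, 5.26 and 5.35 on cuprizone and 4.95 and 5.08 in recovery, and 5.37, then 5.32 and 4.75, then 5.02 and 4.82 in the Trem2-/- libraries, and only 3 libraries exceeded the table median. Mcm6 gave 5.38 in the WT control, 6.29 and 5.87 on cuprizone and 5.63 and 5.98 in recovery, and 5.45, then 5.74 and 6.12, then 5.56 and 6.16 in the Trem2-/- libraries. Its 2 controls were the lowest of the 10. Mcm7 gave 4.25 in the WT control, 5.60 and 5.55 on cuprizone and 5.51 and 5.17 in recovery, and 5.51, then 5.55 and 5.23, then 5.46 and 5.62 in the Trem2-/- libraries. The WT control was the one low library and the other 9 lay between 5.17 and 5.62. Cdt1, the loading factor, measured 5.34 in the WT control, 5.61 and 6.16 on cuprizone and 5.46 and 5.80 in recovery, and 5.90, then 5.51 and 5.90, then 5.27 and 5.91 in the Trem2-/- libraries. Gmnn, geminin, measured 4.22 in the WT control, 4.44 and 4.47 on cuprizone and 4.06 and 4.14 in recovery, and 4.17, then 4.06 and 4.26, then 4.42 and 4.26 in the Trem2-/- libraries, below the table median throughout. Mcm4 measured 5.5029 in the WT control, 6.02 and 5.83 on cuprizone and 5.78 and 5.68 in recovery, and 5.90, then 5.85 and 5.36, then 5.73 and 5.95 in the Trem2-/- libraries, with the genotypes overlapping. Mcm3 ranged from 6.04 to 6.49 and Cdc6, the other loading factor, from 3.44 to 4.42, below the mark in all 10.

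Of the 6 genes of DNA synthesis, 4 were tested. Pcna, the sliding clamp, measured 10.73 in the WT control, 10.98 and 11.14 on cuprizone and 9.93 and 10.69 in recovery, and 10.39, then 10.85 and 11.45, then 10.24 and 10.84 in the Trem2-/- libraries. By this probe, the brighter of 2, recovery libraries lay below the cuprizone library of the same genotype and duration. By the dimmer probe, given below, this held in 2 of 4 pairs. Rrm1, the large subunit of ribonucleotide reductase, measured 5.88 in the WT control, 6.30 and 6.44 on cuprizone and 6.12 and 6.62 in recovery, and 6.03, then 6.02 and 6.76, then 6.18 and 6.09 in the Trem2-/- libraries. The control was its lowest library in WT, and the library titled Trem2-/- 12 weeks of cuprizone its highest of all. Rrm2, the small subunit that limits the enzyme in cycling cells, measured 3.43 in the WT control, 3.74 and 4.02 on cuprizone and 4.08 and 3.77 in recovery, and 3.56, then 3.81 and 3.73, then 3.10 and 3.59 in the Trem2-/- libraries, all below the mark. Tyms, thymidylate synthase, measured 6.49 in the WT control, 6.67 and 6.72 on cuprizone and 6.24 and 5.90 in recovery, and 6.25, then 6.07 and 6.04, then 6.00 and 6.27 in the Trem2-/- libraries. The 2 WT cuprizone libraries were the highest. Tk1, cytosolic thymidine kinase, measured 8.06 in the WT control, 8.35 and 7.18 on cuprizone and 8.61 and 7.43 in recovery, and 8.66, then 8.29 and 7.56, then 8.52 and 7.59 in the Trem2-/- libraries. As for Ccnd1, the first-run libraries lay above the second by this probe, the brighter of 2. By the dimmer probe, given below, the runs overlapped. Uhrf1, which keeps DNA methylation through replication, measured 4.56 in the WT control, 4.20 and 4.49 on cuprizone and 4.86 and 4.42 in recovery, and 4.89, then 4.59 and 4.69, then 4.38 and 4.65 in the Trem2-/- libraries, below the mark.

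Pcna and Tk1 each had a second, dimmer probe, and the 2 probes did not always move together. Probes with neighbouring numbers on this array name genes of 1 chromosome in most cases: for 39 of the 41 member probes the commonest chromosome of the 10 neighbours was the gene's own. The exceptions were the brighter Pcna probe, whose neighbours name genes on chromosome 19 in 9 of 10 cases (Pcna lies on chromosome 2, and RefSeq lists the pseudogene Pcna-ps2 on chromosome 19), and the brighter Tk1 probe, with chromosome 8 in 9 of 10 (Tk1 lies on chromosome 11). The dimmer probes matched their gene's chromosome in 10 of 10. The dimmer Pcna probe measured 10.12 in the WT control, 10.36 and 10.99 on cuprizone and 10.22 and 11.10 in recovery, and 10.23, then 10.16 and 11.21, then 10.18 and 10.99 in the Trem2-/- libraries. The dimmer Tk1 probe measured 6.62, then 6.11 and 6.96, then 6.68 and 6.40 in WT, and 6.83, then 6.36 and 6.63, then 5.98 and 6.29 in Trem2-/-. Values of Pcna and Tk1 in the comparisons come from the brighter probe unless the dimmer is named, and the dimmer probe's value follows.

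Of 11 mitotic kinases, cyclins and regulators on the array, 6 were tested. Cdk1, the kinase of mitotic entry, measured 5.18 in the WT control, 6.41 and 6.23 on cuprizone and 5.67 and 5.25 in recovery, and 5.58, then 5.53 and 5.71, then 5.62 and 5.08 in the Trem2-/- libraries. Both WT cuprizone libraries stood above the other 8. Ccna2, cyclin A2, measured 4.10 in the WT control, 4.45 and 4.57 on cuprizone and 4.87 and 4.61 in recovery, and 4.89, then 4.94 and 4.66, then 5.16 and 5.10 in the Trem2-/- libraries, below the table median in each. Ccnb2, cyclin B2, measured 5.79 in the WT control, 6.18 and 6.14 on cuprizone and 5.70 and 6.26 in recovery, and 6.06, then 6.53 and 6.02, then 5.81 and 6.84 in the Trem2-/- libraries. Genotypes and diets overlapped. Birc5, survivin of the chromosomal passenger complex, measured 4.85 in the WT control, 5.34 and 4.76 on cuprizone and 5.42 and 5.21 in recovery, and 4.85, then 4.97 and 5.09, then 5.20 and 5.33 in the Trem2-/- libraries, with 3 libraries above the mark. Aurkb, the Aurora kinase of that complex, measured 5.08 in the WT control, 4.70 and 5.41 on cuprizone and 5.04 and 5.26 in recovery, and 4.90, then 4.91 and 5.20, then 5.08 and 5.52 in the Trem2-/- libraries, with 2 above it. In each pair of the same genotype and diet the second-run library was the higher. Cdc20, an activator of the anaphase-promoting complex, measured 5.26 in the WT control, 5.64 and 5.87 on cuprizone and 5.17 and 5.62 in recovery, and 5.44, then 5.30 and 5.40, then 5.45 and 5.42 in the Trem2-/- libraries. Its WT cuprizone libraries were the 2 highest. Aurka, the spindle pole Aurora kinase, measured 5.56 in the WT control, 5.79 and 6.00 on cuprizone and 5.81 and 5.93 in recovery, and 6.01, then 5.81 and 5.69, then 5.61 and 5.59 in the Trem2-/- libraries. Genotypes and diets overlapped. Plk1 (3.94 to 4.88), Bub1 (2.56 to 3.47), Bub1b (4.08 to 4.82) and Ube2c (4.44 to 5.06), which act in the spindle checkpoint, mitotic entry and cyclin destruction, exceeded the mark in no library.

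The spindle, kinetochore and chromosome genes were near background apart from Stmn1, the 1 of 11 that was tested. Stmn1, the microtubule-destabilising protein stathmin, measured 8.08 in the WT control, 8.60 and 8.38 on cuprizone and 8.03 and 8.04 in recovery, and 8.09, then 8.25 and 8.52, then 8.09 and 8.36 in the Trem2-/- libraries. In both genotypes its cuprizone libraries were higher than the control. Mki67, the gene of the proliferation antigen Ki-67, measured 4.77 in the WT control, 5.32 and 4.45 on cuprizone and 5.08 and 4.76 in recovery, and 5.20, then 5.18 and 4.94, then 4.83 and 5.19 in the Trem2-/- libraries, and only the WT library at 4 weeks of cuprizone exceeded the mark. Top2a, topoisomerase II alpha, measured 4.17 in the WT control, 4.75 and 4.44 on cuprizone and 4.51 and 4.16 in recovery, and 4.71, then 4.98 and 5.17, then 4.94 and 5.11 in the Trem2-/- libraries. In each of the 5 conditions its Trem2-/- value was the higher, all below the mark. Kif11, Kif20a, Kif23, Cenpe, Cenpf, Nusap1, Prc1 and Tpx2, mitotic motors, kinetochore proteins and spindle proteins, exceeded the mark in no library and ranged, in that order, from 4.29 to 5.18, 4.01 to 4.52, 4.40 to 5.12, 3.59 to 4.16, 4.02 to 4.91, 3.44 to 4.08, 3.37 to 4.77 and 4.11 to 4.47.

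The first comparison asked how microglia on cuprizone differed from the control in WT mice. Values are log2 differences ± their standard error, with 2 cuprizone libraries against 1 control. None of the 19 tested members passed limma's test at an adjusted p of 0.05, against 0.148% of all genes tested (16 genes, all higher); 2 members and 471 genes had an unadjusted p under 0.05. Differences were positive for 31 of the 39 genes with a median of 0.21, while 49.2% of all genes were positive with a median of -0.00. In both libraries 23 of the 39 lay above the control (30.7% of all genes did) and 5 below it (32.7%). Licensing genes were positive in 9 of 9, with a median of 0.43, and 8 of 9 were higher in both libraries. Here and in each comparison that follows, highest and lowest are among the 19 tested members. The highest were Mcm7 at 1.32 ± 0.25 (adjusted p = 0.177), Cdk1 at 1.14 ± 0.30 (adjusted p = 0.528) and Mcm6 at 0.70 ± 0.34 (adjusted p = 0.998). On the linear scale Mcm7 was 2.50 times the control level. Mcm7 and Cdk1 were the 2 members with an unadjusted p under 0.05. Untested Bub1 (0.82) and Plk1 (-0.47) had values beyond some of these. The lowest tested were Ccnd1 at -0.63 ± 0.60 (adjusted p = 0.998), Tk1 at -0.30 ± 0.65 (adjusted p = 0.998) and Aurkb at -0.03 ± 0.34 (adjusted p = 0.999). The dimmer Tk1 probe gave -0.08 ± 0.36 (adjusted p = 0.998). Synthesis genes were positive in 4 of 6, mitotic kinases, cyclins and regulators in 9 of 11, and spindle, kinetochore and chromosome genes in 8 of 11. Every value here rests on the 1 WT control library, in which Mcm7 was low and which belongs to the first run. Ccnd1 differed from that control by -0.06 at 4 weeks and by -1.20 at 12, and Tk1 (brighter probe) by 0.29 and -0.88. With the titled duration as a block, Mcm7 passed limma's test, at 1.39 ± 0.22 (adjusted p = 0.0185). It was the 1 of 19 tested members among 105 of 10792 genes called. This call rests on the same low WT control library, at 4.25, while the Trem2-/- control stood at 5.51. Border macrophage markers summed to 1825 in that control and to 4563 and 2064 on cuprizone, and astrocyte markers to 516 in the control and 315 to 398 on cuprizone; their part was not tested.

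**Figure D2:**
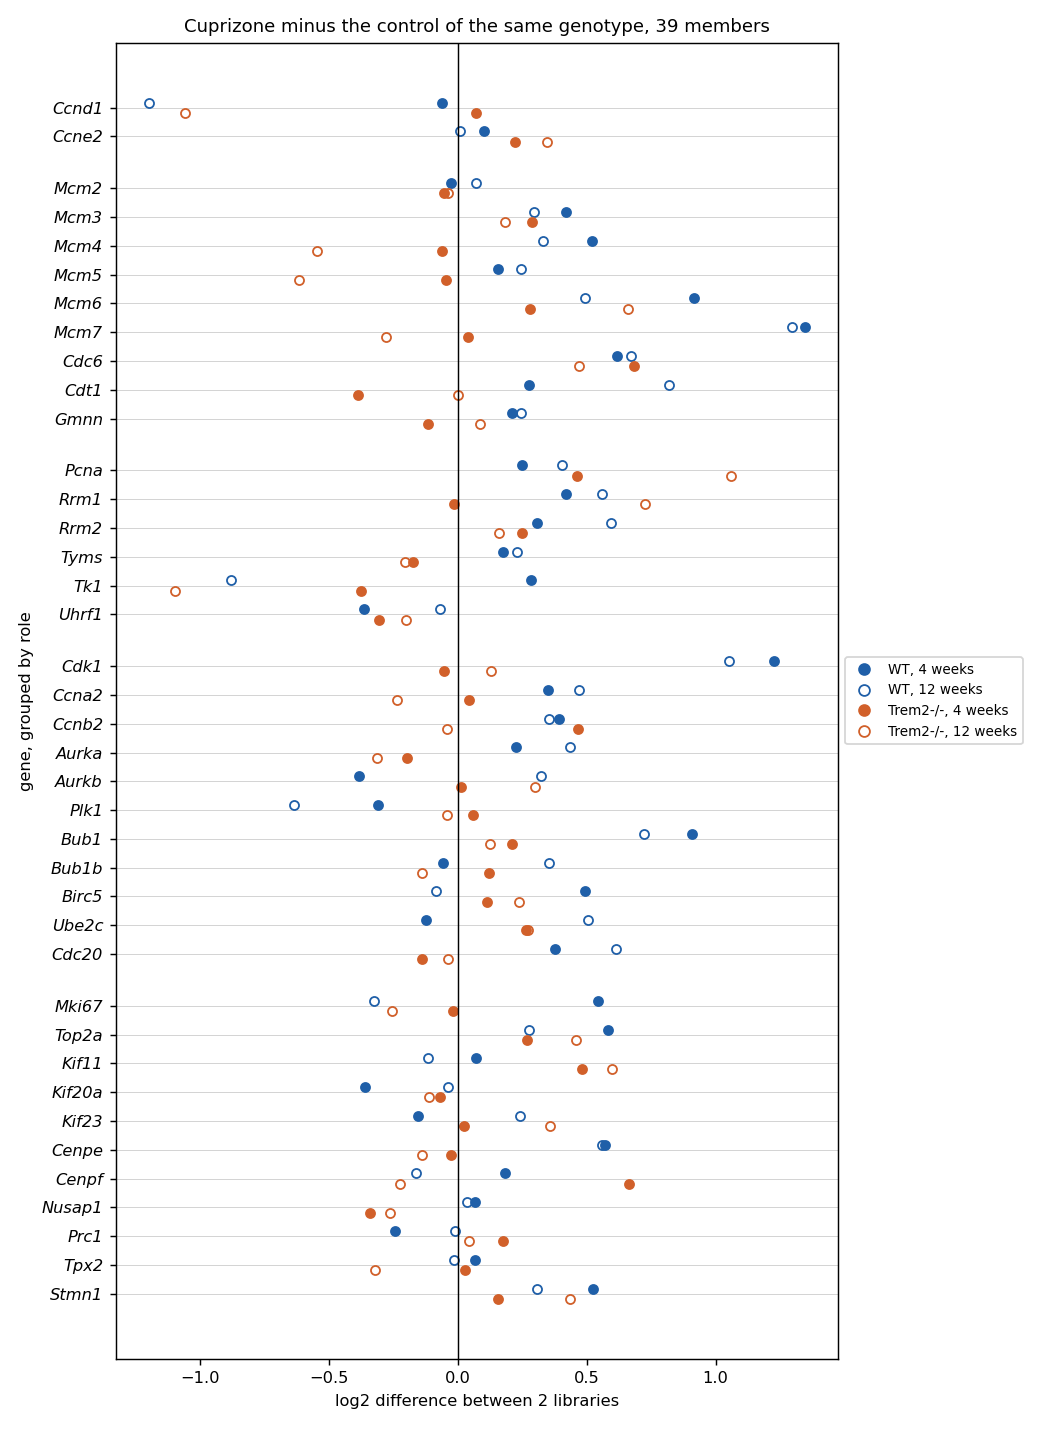
Log2 difference of each cuprizone library from the control of the same genotype (horizontal axis, filled points for 4 and open points for 12 weeks) for the 39 genes (vertical axis), WT in blue and Trem2-/- in orange. Of the 9 licensing genes 8 lie to the right of 0 in both WT libraries, with Mcm7 farthest at 1.32 on average; in Trem2-/- they lie on both sides of 0.

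In Trem2-/- mice the same comparison called none of the 19 members and 0 of 10792 genes (limma; 0% called, with 0 members and 100 genes at an unadjusted p under 0.05). Differences were positive for 20 of 39 genes and for 50.6% of all genes, with medians of 0.01 and 0.00. In both libraries 15 of 39 were above the control (32% of all genes) and 12 below it (30.4%). Of the 9 licensing genes 3 were positive. The highest tested members were Pcna at 0.76 ± 0.40, Mcm6 at 0.47 ± 0.34 and Rrm1 at 0.35 ± 0.34. The lowest tested were Tk1 at -0.74 ± 0.65, Ccnd1 at -0.49 ± 0.60 and Mcm5 at -0.33 ± 0.28, and the adjusted p of these 6 was 0.999. At 4 and 12 weeks Ccnd1 differed from the control, a first-run library, by 0.07 and -1.05. For Tk1 these values were -0.37 and -1.10, and for Mcm5 -0.04 and -0.62. The dimmer probes gave 0.45 ± 0.55 (adjusted p = 0.999) for Pcna and -0.34 ± 0.36 (adjusted p = 0.999) for Tk1.

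The difference between the genotypes in the cuprizone response was tested directly. It was negative, a lower difference in Trem2-/- than in WT, for 28 of the 39 genes with a median of -0.16 (0.01 over all genes), and for 9 of 9 licensing genes with a median of -0.24. Positive values were found for 11 of the 39 and for 51.2% of all genes. None of the 19 tested members passed limma's test (0.00927% of all genes did, 1 gene; 2 members had an unadjusted p under 0.05). Among tested members Mcm7 had the lowest value, -1.44 ± 0.36 (adjusted p = 1), followed by Cdk1 at -1.10 ± 0.42 (adjusted p = 1) and Cdt1 at -0.74 ± 0.51 (adjusted p = 1). The highest tested were Pcna at 0.43 ± 0.57 (adjusted p = 1), Aurkb at 0.19 ± 0.48 (adjusted p = 1) and Ccnd1 at 0.14 ± 0.86 (adjusted p = 1). The dimmer Pcna probe turned the sign, to -0.11 ± 0.78 (adjusted p = 1). This comparison contains the 1 WT and the 1 Trem2-/- control. Between those controls alone the median of the 39 genes was 0.21, higher in Trem2-/- for 29 of them (49.7% of all genes were). Mcm7 was 4.25 in the WT control and 5.51 in the Trem2-/- control.

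The cuprizone groups of the 2 genotypes were compared without the controls. No tested member passed (limma; 0.334% of all genes did, 36 genes, 0.324% of those tested being lower in Trem2-/- and 0.00927% higher), and 2 members had an unadjusted p under 0.05. These were Cdk1, at -0.70 ± 0.24 (adjusted p = 0.878), and Tyms, at -0.64 ± 0.20 (adjusted p = 0.686), each lower in the Trem2-/- library at both durations. Cdk1 stood at 6.41 and 6.23 in WT against 5.53 and 5.71 in Trem2-/-. Tyms stood at 6.67 and 6.72 against 6.07 and 6.04. Next lowest was Cdc20 at -0.40 ± 0.21 (adjusted p = 1). The highest tested were Mcm2 at 0.23 ± 0.20, Ccnd1 at 0.23 ± 0.49 and Tk1 at 0.16 ± 0.53, each with an adjusted p of 1. The dimmer Tk1 probe gave -0.04 ± 0.29 (adjusted p = 1), the opposite sign. Among the 39 genes 10 were higher in Trem2-/- at both durations (27.2% of all genes) and 11 lower (25.4%), with a median of -0.00.

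After recovery no tested member passed limma's test between genotypes (0.0278% of all genes did, 3 genes; 0 members and 207 genes had an unadjusted p under 0.05). Of the 39 genes 25 were positive, median 0.07, while 48.9% of all genes were positive, median -0.00. Of the tested members the highest were Ccnb2 at 0.34 ± 0.36 (adjusted p = 1), Pcna at 0.23 ± 0.33 (adjusted p = 1) and Mcm2 at 0.20 ± 0.20 (adjusted p = 1), and the lowest Aurka at -0.27 ± 0.18 (adjusted p = 1), Rrm1 at -0.23 ± 0.28 (adjusted p = 1) and Ccnd1 at -0.12 ± 0.49 (adjusted p = 1). The dimmer Pcna probe gave the opposite sign, -0.07 ± 0.45 (adjusted p = 1). Untested Top2a was 0.69 and Rrm2 -0.58. The 2 durations pointed differently, with a median over the 39 genes of -0.07 at 4 weeks and 0.18 at 12.

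Compared within each of the 5 diet conditions, 0 of 19 members passed (limma; 28 of 10792 genes, 0.259%, did, 0.0741% higher and 0.185% lower), 1 member and 1162 genes had an unadjusted p under 0.05, and the median was 0.02. The member was Mcm2, at 0.23 ± 0.10 (adjusted p = 0.461), higher in Trem2-/- in 4 of 5 conditions. Ccnb2 at 0.24 ± 0.11 (adjusted p = 0.475) was higher in 4 of 5 and Mcm7 at 0.26 ± 0.20 (adjusted p = 0.681) in 2 of 5. The value of Mcm7 rests on the low WT control: its control pair differed by 1.26, and the pairs at 4 and 12 weeks by -0.05 and -0.31 on cuprizone and by -0.05 and 0.45 in recovery. On the low side stood Tyms at -0.28 ± 0.14 (adjusted p = 0.536), higher in 1 of 5, Cdk1 at -0.24 ± 0.16 (adjusted p = 0.636) and Cdc20 at -0.11 ± 0.12 (adjusted p = 0.808). In all 5 conditions 3 of the 39 genes were higher in Trem2-/- (4.23% of all genes were) and 0 were lower (4.69%). These 3, Top2a (0.58), Prc1 (0.58) and Ccna2 (0.43), lay below the filter and were not tested.

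Recovery was set against cuprizone within each genotype. These comparisons use the same cuprizone libraries as those against the control, so their values are given side by side and not as support for each other. In WT, differences were positive for 15 of 39 genes with a median of -0.07, and for 0 of 9 licensing genes with a median of -0.25; 17 of 39 were lower at both durations (26.2% of all genes), 7 of the 9 licensing genes among them, and 8 were higher (26.7%). No member and no gene passed limma's test (0% called; 3 members and 295 genes had an unadjusted p under 0.05). The lowest tested were Cdk1 at -0.86 ± 0.24 (adjusted p = 0.999), Pcna at -0.75 ± 0.33 (adjusted p = 0.999) and Tyms at -0.63 ± 0.20 (adjusted p = 0.999), and the highest Ccnd1 at 0.37 ± 0.49 (adjusted p = 0.999), Birc5 at 0.27 ± 0.23 (adjusted p = 0.999) and Tk1 at 0.26 ± 0.53 (adjusted p = 0.999). The dimmer probes gave -0.02 ± 0.45 (adjusted p = 0.999) for Pcna, lower in 1 of 2 pairs, and 0.00 ± 0.29 (adjusted p = 0.999) for Tk1. Untested Prc1 was 0.85 and Bub1 -0.63. In Trem2-/-, 18 of 39 were positive with a median of -0.05, 4 of 9 licensing genes were positive, and again no member or gene passed limma's test (0% called; 0 members and 64 genes at an unadjusted p under 0.05). At both durations 10 of 39 were lower (23.9% of all genes) and 9 higher (22.2%). The lowest tested were Pcna at -0.61 ± 0.33 (adjusted p = 1), Cdk1 at -0.27 ± 0.24 (adjusted p = 1) and Rrm1 at -0.25 ± 0.28 (adjusted p = 1), and the highest Aurkb at 0.25 ± 0.28 (adjusted p = 1), Birc5 at 0.24 ± 0.23 (adjusted p = 1) and Mcm4 at 0.23 ± 0.22 (adjusted p = 1). The dimmer Pcna probe gave -0.10 ± 0.45 (adjusted p = 1). Of all genes 51.6% were positive in WT and 48.4% in Trem2-/-.

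Pairing each recovery library with the cuprizone library of the same genotype and titled duration gave 4 pairs, a fit chosen after the values were seen. No member and no gene passed (limma; 0% called, 4 members and 597 genes at an unadjusted p under 0.05). Pcna was -0.68 ± 0.13 (adjusted p = 0.873), lower in 4 of 4 pairs, at -1.05 and -0.45 in WT and -0.61 and -0.61 in Trem2-/-. The dimmer Pcna probe gave -0.06 ± 0.11 (adjusted p = 0.954) and was lower in 2 of 4 pairs. Cdk1 was -0.57 ± 0.17 (adjusted p = 0.873), lower in 3 of 4. Stmn1 was -0.31 ± 0.12 (adjusted p = 0.873), lower in 4 of 4, and Birc5 0.25 ± 0.11 (adjusted p = 0.873), higher in 4 of 4. Tk1 was 0.19 ± 0.11 (adjusted p = 0.892) by the brighter probe and -0.18 ± 0.18 (adjusted p = 0.93) by the dimmer. Of the 39 genes 4 were lower in all pairs (6.38% of all genes were) and 5 higher (6.08%), with a median of -0.08.

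**Figure D3:**
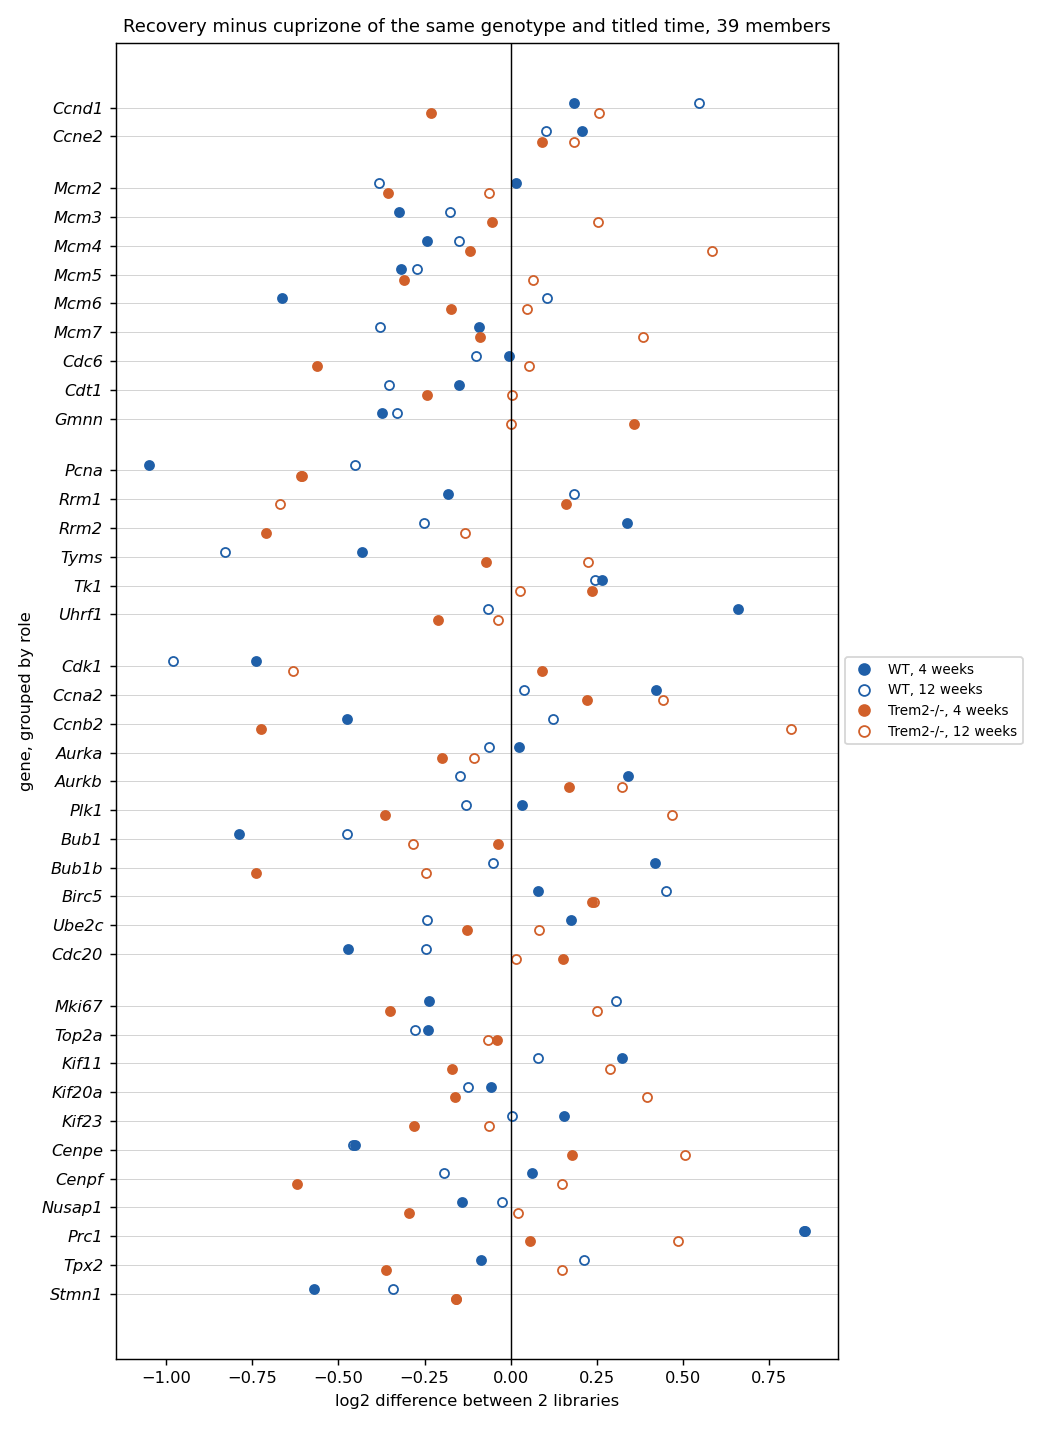
Log2 difference between recovery and cuprizone (horizontal axis) for the 39 genes (vertical axis, brighter probes), 1 point per pair of libraries of the same genotype and duration. The brighter Pcna probe lies left of 0 in 4 of 4 pairs and Cdk1 in 3 of 4.

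Against the control, the recovery libraries gave 27 of 39 positive values in WT (49.7% of all genes), with a median of 0.15. In Trem2-/- 22 of 39 were positive (49% of all genes), with a median of 0.03. No member or gene passed limma's test in either genotype (0% called). An unadjusted p under 0.05 was found for 1 member and 242 genes in WT and for 0 members and 151 genes in Trem2-/-. In WT, Mcm7, set against the same control library as above, was the highest tested member, at 1.08 ± 0.25 (adjusted p = 0.999), then Rrm1 at 0.49 ± 0.34 and Birc5 at 0.47 ± 0.28, and the lowest were Tyms at -0.43 ± 0.24, Pcna at -0.42 ± 0.40 and Ccnd1 at -0.26 ± 0.60. The dimmer Pcna probe turned the sign, to 0.54 ± 0.55 (adjusted p = 0.999), higher in 2 of 2. In Trem2-/-, Birc5 at 0.41 ± 0.28, Mcm6 at 0.41 ± 0.34 and Aurkb at 0.40 ± 0.34 were highest and Tk1 at -0.60 ± 0.65, Ccnd1 at -0.48 ± 0.60 and Mcm5 at -0.45 ± 0.28 lowest among the tested. By library, at 4 and 12 weeks, Ccnd1 was 0.12 and -0.65 in WT and -0.16 and -0.80 in Trem2-/-. The dimmer Tk1 probe gave -0.70 ± 0.36 (adjusted p = 1).

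The 4 libraries titled 12 weeks were compared with the 4 titled 4 weeks, within genotype and diet. Titled time and run of sample numbers coincide and cannot be told apart. In this comparison 5 of 19 members passed (3 higher, 2 lower), against 20.3% of all genes tested (2194 genes; 8.22% higher and 12.1% lower). The members' share was therefore near the background. Ccnd1 fell, at -0.92 ± 0.12 (adjusted p = 0.00164) or 0.529 times the 4-week level, and was lower in 4 of 4 pairs, with 7.95 to 8.50 at 12 weeks against 9.08 to 9.31 at 4 weeks. The controls, at 9.15 and 9.24, lay with the 4-week libraries. Cdt1 rose by 0.48 ± 0.11 (adjusted p = 0.0158) and Aurkb by 0.41 ± 0.12 (adjusted p = 0.037), each higher in 4 of 4 pairs. Pcna rose by 0.53 ± 0.13 (adjusted p = 0.0183) by its brighter probe and by 0.84 ± 0.11 (adjusted p = 0.0016) by the dimmer, which measured 10.99 to 11.21 at 12 weeks and 10.16 to 10.36 at 4 weeks, without overlap. Tk1 by its brighter probe fell, at -1.0005 ± 0.12 (adjusted p = 0.000923), lower in 4 of 4. By its dimmer probe it was 0.29 ± 0.16 (adjusted p = 0.238), the opposite sign, so its direction depended on the probe. Of the 39 genes 5 were higher in all 4 pairs (17.9% of all genes) and 3 lower (15.8%), with a median of 0.03. The 5 were Cdt1, Pcna, Aurkb, Ube2c (0.27) and Kif23 (0.38), and the 3 were Ccnd1, Tk1 and Cenpf (-0.49); Ube2c, Kif23 and Cenpf were below the filter. Cdk1 was the third lowest tested member, at -0.23 ± 0.14 (adjusted p = 0.241).

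**Figure D4:**
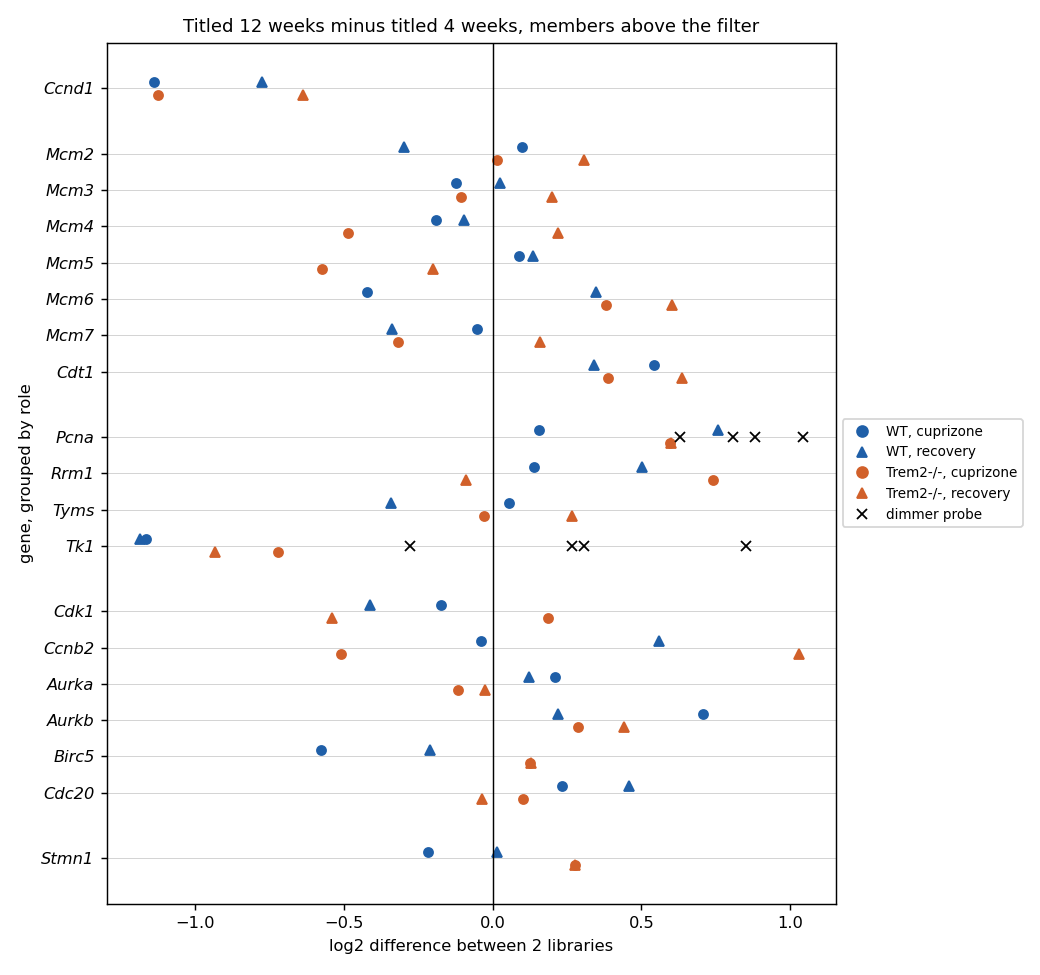
Log2 difference between the libraries titled 12 and 4 weeks (horizontal axis) for the 19 tested genes (vertical axis), 1 point per pair of the same genotype and diet, with crosses for the dimmer probes of Pcna and Tk1. Ccnd1 and the brighter Tk1 probe lie left of 0 in 4 of 4 pairs, with Ccnd1 at -0.92 on average, and both Pcna probes right of 0.

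The calls differed in how far they held. Ccnd1 and the brighter Tk1 probe passed without any 1 of the 8 libraries. Aurkb was lost without either WT cuprizone library (adjusted p = 0.155), either Trem2-/- cuprizone library (0.0611) or either Trem2-/- recovery library (0.115). Cdt1 was lost without either WT cuprizone library (0.0644) or either Trem2-/- recovery library (0.0753). The brighter Pcna probe was lost without either WT recovery library (0.0639), either Trem2-/- cuprizone library (0.0581) or either Trem2-/- recovery library (0.0761). Fewer of the 19 tested members were then called in each case, and the range of calls over all genes is given with the processing. Leaving out 1 library of a pair removes the pair. With the Trem2-/- library of conflicting labels counted as 4 weeks, 186 of 10792 genes and 1 of 19 members passed limma's test. The member was Tk1 by its brighter probe, and Ccnd1 was -0.85 (adjusted p = 0.0944). The summed markers of microglia, astrocytes, neutrophils, monocytes and border macrophages did not overlap between the 4-week and the 12-week libraries and were lower in the latter. By median log2 level the astrocyte markers overlapped, at 4.67 to 5.12 and 4.64 to 4.97, and those of the other named cells did not. Their part was not tested.

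Other genes of the cycle, 101 on the array and 60 tested, showed how the rest of the pathway stood: activators, inhibitors and checkpoint genes, replication fork genes and further mitotic genes. In WT on cuprizone 71 of 101 were positive with a median of 0.17 (49.2% of all genes were positive). In Trem2-/- 72 of 101 were positive with a median of 0.14 (50.6% of all genes). By limma's test 0 of 60 passed in either genotype (0.148% and 0% of all genes did), with 3 and 0 at an unadjusted p under 0.05. The highest in WT was Mad2l1, a spindle checkpoint protein, at 1.27 ± 0.35 (adjusted p = 0.656), which was 0.76 ± 0.35 in Trem2-/-. Replication fork genes were positive in 16 of 22 in WT and 17 of 22 in Trem2-/-, other mitotic genes in 29 of 39 in both. For 12 against 4 weeks 13 of 60 passed, 9 higher and 4 lower, a share near the 20.3% of all genes. Among activators of the cycle, Dbf4, the partner of the Cdc7 kinase that fires origins, rose by 0.60 ± 0.12 (adjusted p = 0.00927), and Tfdp1, the partner of E2F factors, by 0.52 ± 0.13 (adjusted p = 0.0214). The G1 and S phase kinases Cdk4 and Cdk2 fell, at -0.48 ± 0.11 (adjusted p = 0.0143) and -0.57 ± 0.15 (adjusted p = 0.0261). Of 19 tested inhibitors and checkpoint genes 4 passed, all higher, against 20.3% of all genes (8.22% higher and 12.1% lower). Cdkn1b, the Cdk inhibitor p27, rose by 0.61 ± 0.11 (adjusted p = 0.00641) and the mitotic brake Wee1 by 0.76 ± 0.19 (adjusted p = 0.0236). The p53 targets Mdm2 and Gadd45a rose by 0.72 ± 0.11 (adjusted p = 0.00313) and 0.88 ± 0.15 (adjusted p = 0.00478). In the list named replication fork, the histone mRNA-binding protein Slbp rose by 0.96 ± 0.12 (adjusted p = 0.00114). The helicase cofactor Cdc45 rose by 0.38 ± 0.11 (adjusted p = 0.0385) and the flap nuclease Fen1 by 0.41 ± 0.11 (adjusted p = 0.0321). The centromeric histone Cenpa and the tubulin Tubb5 fell, at -0.56 ± 0.12 (adjusted p = 0.0124) and -0.68 ± 0.12 (adjusted p = 0.00478). Time and run cannot be told apart for these genes either.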

How the data were processed

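Expression was measured on 1-colour microarrays in 10 libraries of sorted mouse microglia. The authors deposited 1 linear intensity per probe, not log-transformed; their background correction and normalization were not given in the sources used here. Column medians of 37.6 to 39.3 were kept without further scaling, and values were log2-transformed. Of 24567 probes, 21259 had 1 gene symbol in the platform annotation, 1274 had several and 2034 were unlisted. Of these, 21182 matched RefSeq, which updated 0 symbols. The brightest single-gene probe was used per gene. Genes above the table median in at least 2 libraries (10792) were fitted with limma 3.58.1 (R 4.3.3; lmFit and eBayes) and p-values adjusted by Benjamini-Hochberg, threshold 0.05; errors are standard errors of the fit. The group means fit over all 10 libraries has 4 residual degrees of freedom, the genotype fit with diet condition as a block 4, the fit of 12 against 4 weeks 3, and the paired recovery fit 3. The 2 libraries of a group differ in titled duration and run, so the spread in the group means fit holds both. The fits of WT cuprizone against control and of 12 against 4 weeks were run on simulated data with shifts of 3 log2 units. The simulated noise was independent between libraries and held no run effect. Such data cannot show how shifts as small as those of the members are recovered. The number of arrays limits the precision. Alternatives were the mean over probes, other filters, quantile normalization, 16 added before log2, duration as a block, the conflicting label read as 4 weeks, the other probe of Pcna and Tk1, and leaving out each library. Values in all libraries are given for core members, for the 3 highest and 3 lowest tested members of a comparison and for those passing a test; pathway genes are named where they pass, or stand at the end of their list. The members, lists and naming rule were chosen with earlier results of these data known.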

Additional observations from a re-analysis of the deposited data

How the results depend on the processing

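The controls hold 1 library per genotype, so comparisons with a control could not be fitted without it, and many levels lie near background. Outside the settings that leave out 1 library, 69 of 91 counts of genes called and 89 of 91 counts of members called stayed within 1.5 times the reported count, 91 of 91 member medians moved by less than 0.0715, the SD between the 2 libraries of a group, which also differ in titled time and run, and 240 of 257 single-member values kept their direction and side of the threshold. The cause of the shifts below was not tested. With the reported filter, the counts below are out of 10792 genes and 19 members tested. Genes called over 5 diet conditions rose from 28 to 44 without a filter and 54 with 16 added. Requiring all 10 libraries above the table median gave 0 genes (WT cuprizone against control), 7 (genotypes on cuprizone), 1 (genotypes after recovery) and 0 (genotype difference in the response). With 16 added, that last count was 0 and the paired recovery fit gave 1. With the titled duration as a block, the counts were 105 genes and 1 member (WT cuprizone against control), 13 (Trem2-/- cuprizone against control), 7 (WT recovery against cuprizone), 19 and 19 (recovery against control), 153 (genotypes on cuprizone), 10 (after recovery) and 9 (difference in the response). With the conflicting label also read as 4 weeks, an alternative chosen after seeing the data, they were 37, 1, 2, 55 and 8 where they moved. That reading gave 186 genes and 1 member for 12 against 4 weeks. Signs turned for Aurkb in WT on cuprizone under quantile normalization (0.0034), for Tk1 there under the block (0.20, and 0.25 with the label changed), for Tk1 (-0.39) and Ccnd1 (-0.20) between genotypes on cuprizone under the block with the label changed, and with the other probe for Tk1 between genotypes on cuprizone (-0.040), for 12 against 4 weeks (0.29) and in the paired recovery fit (-0.18), and for Pcna in the difference in the response (-0.11). The other probe also turned Pcna in WT recovery against control (0.54), between genotypes after recovery (-0.075) and over 5 conditions (-0.0036), and Tk1 over 5 conditions (-0.14), between genotypes after recovery (-0.41) and in Trem2-/- recovery against cuprizone (-0.36). Leaving out 1 library in turn, genes called ranged from 2 to 16 and the member median from 0.21 to 0.29 (WT cuprizone against control), 0 to 42 genes (genotypes on cuprizone), 0 to 4 genes and -0.064 to 0.24 (after recovery), 0 to 1 genes and -0.24 to -0.094 (difference in the response), 8 to 103 genes (5 conditions), and 1064 to 2194 genes, 2 to 5 members and -0.048 to 0.10 (12 against 4 weeks). Member medians ranged from -0.15 to -0.016 (paired recovery), -0.20 to -0.067 (WT recovery against cuprizone), -0.14 to 0.087 (Trem2-/- recovery against cuprizone) and -0.050 to 0.087 (Trem2-/- recovery against control).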
